A study of Mus musculus with 202 samples.

Results

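The Ecad- fraction of a mouse pancreatic cancer line was ordered by how strongly each cell expressed mitotic genes, and the cells at both ends of that order were compared. The cycling score of a cell was the mean log2 value of 8 genes of mitosis and late cell cycle stages, Mki67, Top2a, Cdk1, Ccnb1, Ube2c, Aurkb, Tpx2 and Birc5. Of 97 Ecad- cells, the 32 with the highest score are called high-score cells and the 32 with the lowest are called low-score cells. The 33 cells between them, called middle cells, are in neither group. The cells were chosen by the measured values of these 8 genes, which are left out of every other result. All other genes were measured in the same cells that were ordered, so every value below describes this split and none is a test of it.

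The study used a KPC pancreatic ductal adenocarcinoma line from a liver metastasis of a male mouse and sorted it by staining for E-cadherin, the Cdh1 product that joins epithelial cells. KPC denotes a mouse model of pancreatic cancer driven by mutations expressed in the pancreas, so both sorted fractions carry the same tumour genotype and neither is a normal control. The cells were grown in culture and received no treatment other than trypsin and antibody, were captured singly on a microfluidic chip, and had their RNA amplified with SMARTer chemistry, which carries no molecular identifiers. The deposited table holds 98 Ecad- and 104 Ecad+ libraries, which count as 97 and 100 cells because 5 pairs of libraries correlated above 0.97 and were averaged. Whether the line is a single clone, and whether the fractions came from separate cultures, is not given in the sources used here. Each fraction is therefore 1 sample, no p-value is given, and spread is that between cells.

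A dividing cell copies its DNA in S phase, using origin licensing factors, polymerases and deoxynucleotide enzymes whose genes are driven largely by E2F factors at the end of G1. It then condenses, aligns and separates its chromosomes in mitosis, using kinases, kinesins and kinetochore proteins whose genes peak in G2 and are driven by the MMB complex and FOXM1. In cells outside the cycle the DREAM complex keeps both gene groups low. Growth signals engage the early cell cycle, while p53, CDK inhibitors and stress signalling through ATF4 and CHOP are known brakes on it.

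The score was steep over the upper part of the order and shallow over the lower part. It ranged from 3.76 to 7.98, with a median of 5.79, in high-score cells. It ranged from 0 to 1.36, with a median of 0.53, in low-score cells, of which 2 had a score of exactly 0. The upper cut separated scores of 3.76 and 3.54, with 1 high-score cell and 4 other cells within 0.5 of it. The lower cut fell between 1.36 and 1.39 in a dense stretch of the order, with 9 low-score and 18 middle cells within 0.5, so the low-score group is a range and not a separate type. Of the marker genes of cycling cells, Cdk1 had a median of 312 TPM (transcript abundance as a share of a fixed total per cell) in high-score and 0 in low-score cells, Ube2c 186 and 0.044 TPM, and Top2a 43.3 and 0.42 TPM. Cdk1 was nevertheless above 0 in 13 of 32 low-score cells, and Top2a in 25 of 32, so the low-score cells are named by their score and not as non-cycling.

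**Figure D1:**
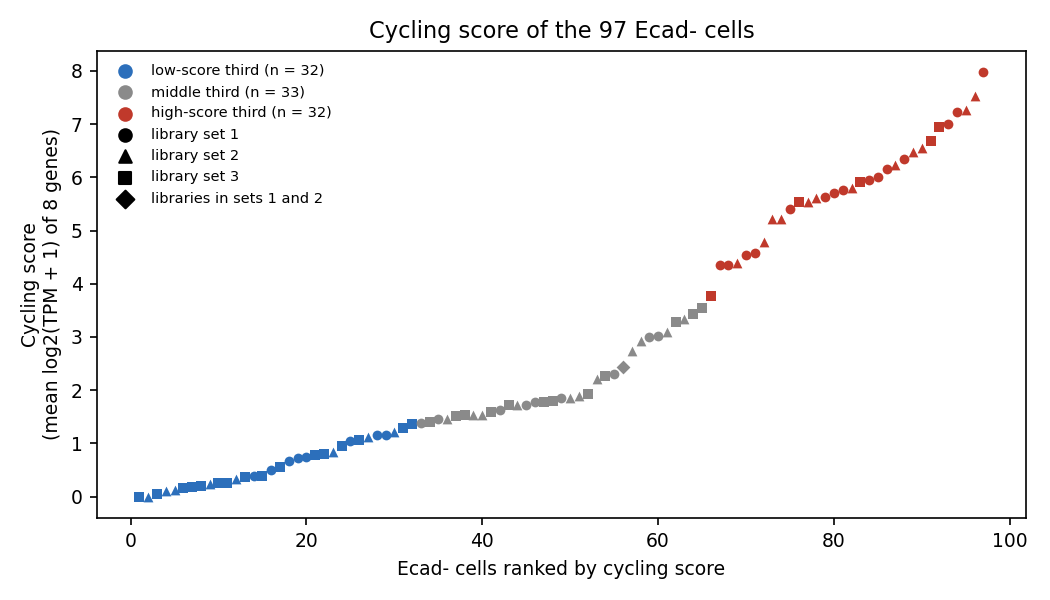
Cycling score (mean log2(TPM + 1) of 8 genes, y axis) of the 97 Ecad- cells in rank order (x axis), coloured by group, with the marker shape giving the library set. High-score cells lie between 3.76 and 7.98, above the next cell at 3.54, while the lower cut at 1.36 to 1.39 lies in a continuous stretch.

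Library properties differed between the groups. The library names carry 1 of 3 suffixes, treated here as library sets whose meaning is not stated; high-score cells came 15, 12 and 5 from sets 1, 2 and 3, and low-score cells 8, 8 and 16. Mitochondrial transcripts took a median of 18.9% of TPM in high-score and 0.55% in low-score cells, and under 1% in 11 and 17 of 32 cells. A median of 9146.5 genes was above 0 in high-score and 8243 in low-score cells. Across the 97 cells the score had a Spearman correlation of 0.46 with the number of genes above 0 and 0.23 with the mitochondrial share, values that share library and RNA content. Values from groups drawn within each library set (11, 10 and 11 cells a group) therefore stand beside the main results. So do values from groups drawn among the 57 cells with a mitochondrial share of at least 1% (19 cells a group), where 10.1% of 7015 genes were at least 2-fold higher and 8.08% at least 2-fold lower. The latter have 0 set 3 cells among the high-score group and 6 among the low-score group. Groups drawn within a set also take in middle cells. The set 3 high-score group holds the 5 high-score cells of that set and middle cells with scores down to 1.80. The low-score groups of sets 1 and 2 hold the 8 low-score cells of each set and middle cells. The part of these properties in the results was not tested.

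Levels below are mean TPM over cells, and a ratio is log2 of the high-score mean plus 1 over the low-score mean plus 1. Genes entered the counts if their mean over the Ecad- cells reached 5 TPM and 10% or more of these cells were above 0. Of 7422 such genes, 851 (11.5%) were at least 2-fold higher and 471 (6.35%) at least 2-fold lower in high-score cells. These shares are the background for every count past 2-fold in a list below, unless another share is named. When means of log2 values were compared instead, 83.5% of the genes past 2-fold were higher, against 64.4% by mean TPM, 53.1% without library set 3 and 45.9% without set 3 and the cells of low mitochondrial share. The median ratio of all genes was 0.06, and the median of a gene list is given relative to it. A gene low in most cells passed the floor only through the cells where it is high, so counts over lists of mitotic genes describe the genes that passed and not the whole list.

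Mitotic genes were higher in high-score cells as a group. In 5 lists of mitotic genes, 88 of 110 members passed the floor, 75 of these were at least 2-fold higher and 0 at least 2-fold lower, beside 11.5% and 6.35% of all genes. Their median ratio was 3.25 relative to all genes, 3.49, 3.32 and 2.47 within library sets 1, 2 and 3, and 3.06 among cells with a mitochondrial share of at least 1%. The mean log2(TPM + 1) over the 88 genes was 2.82 to 6.43 per high-score cell (median 4.88) and 0.62 to 2.60 per low-score cell (median 1.79). These ranges did not overlap, and the score genes belong to the same programme, so this separation is tied to how the cells were chosen. With 10 TPM added to each mean in place of 1, the median was 1.76.

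Among mitotic cyclins, kinases and their activators, 14 of 15 genes above the floor were at least 2-fold higher, with a median of 3.96. Ccna2, the cyclin of S and G2 phases on chromosome 3 at 36564865 to 36572150 (mm10), had 4.88 to 686 TPM with a median of 115 in high-score cells and 0 to 7.52 TPM with a median of 0.2 in low-score cells. Its ratio was 6.36, and 29 of 32 high-score cells lay above the highest low-score cell. Bub1, a spindle checkpoint kinase, ranged from 0 to 330 TPM with a median of 42.0 in high-score cells and was above 0 in 1 of 32 low-score cells, at 0.033 TPM. Its ratio of 5.98 rests on a low-score mean near 0, and 31 high-score cells exceeded that cell. Pbk, a mitotic kinase, averaged 73.0 against 0.15 TPM (ratio 6.01) and was above 0 in 23 of 32 high-score cells. Aurka, a centrosome kinase, averaged 159 against 5.40 TPM (4.65), and Plk1, which drives mitotic entry, 27.3 against 0.4 TPM (4.34). Ccnb2, a partner of Cdk1, averaged 78.0 against 2.60 TPM (4.45), with 1 low-score cell at 77.3 TPM that 13 high-score cells exceeded. Foxm1, the transcription factor of this gene group, stayed below the floor, with 5.48 against 0.34 TPM and values above 0 in 25 and 3 cells.

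The anaphase-promoting complex is the ubiquitin ligase that ends mitosis. Its activator Cdc20 averaged 93.6 against 2.99 TPM (ratio 4.57), its inhibitor Fbxo5 31.5 against 0.96 TPM (4.05), and the cohesin guardian Sgol1 209 against 4.10 TPM (5.36). Sgol2 was listed at 0 in all 32 low-score cells and had 0 to 70.7 TPM in high-score cells, so no fold is given. It was the only gene above the floor listed at 0 in every low-score cell. Of 14 genes of this list above the floor, 8 were at least 2-fold higher and the median was 1.05.

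Spindle and kinetochore genes had medians of 3.16 and 3.80. Among 25 spindle and kinesin genes 24 were at least 2-fold higher, and among 20 kinetochore and centromere genes 19. Hmmr, a spindle assembly protein, had 0 to 494 TPM with a median of 38.4 in high-score cells and 0 to 0.75 TPM with a median of 0.081 in low-score cells (ratio 6.11). In 29 of 32 high-score cells it exceeded every low-score cell. Cep55, needed for the final cut between daughter cells, averaged 70.3 against 0.21 TPM (5.89). Cenpf, a kinetochore protein of G2, averaged 62.5 against 0.13 TPM (5.82) but was above 0 in 23 of 32 low-score cells, at 1.79 TPM or less. Ckap2l (5.67) and Nusap1 (5.57), both microtubule-binding proteins, and Casc5 (5.63), Ndc80 (5.42) and Cenpk (5.26), all kinetochore subunits, had ratios nearly as large.

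**Figure D2:**
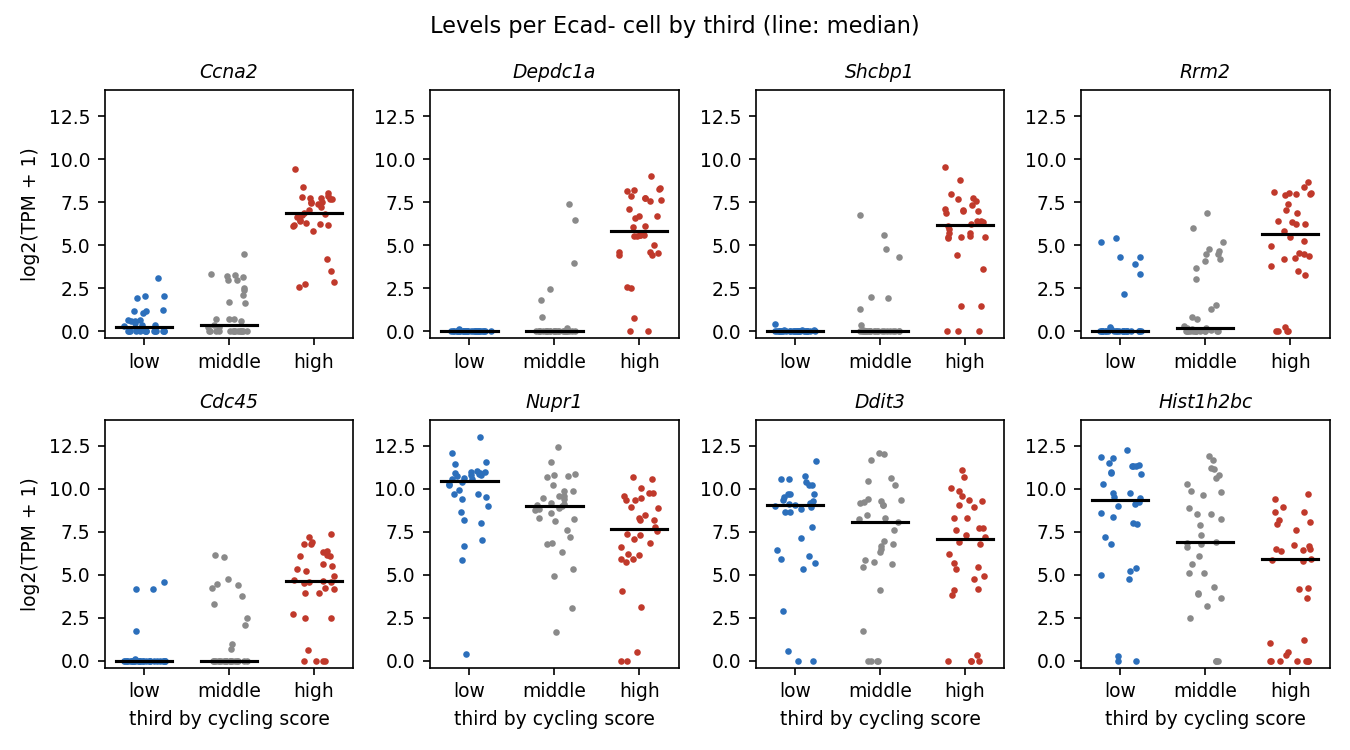
Level per Ecad- cell (log2(TPM + 1), y axis) of 8 genes by group (x axis), 1 point per cell, 32 low-score, 33 middle and 32 high-score cells, with a line at the median. Ccna2 in 29 of 32 high-score cells lies above every low-score cell, whereas Nupr1, Ddit3 and Hist1h2bc are lower in high-score cells with overlapping ranges.

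The promoters of the 8 genes with the largest ratios among the named mitotic and replication genes that the promoter table holds are shown because these genes moved together with the score. Each sequence spans 250 bases before to 30 after the gene's start, from RefSeq on GRCm38.p6, 5′ to 3′ on the strand of the gene. Capitals mark matches on either strand to the CHR element, spelled TTTGAA or TTCGAA, and to the CCAAT box, spelled CCAAT, which reads ATTGG on the other strand.
Hmmr, chr11:40733408-40733687, - strand: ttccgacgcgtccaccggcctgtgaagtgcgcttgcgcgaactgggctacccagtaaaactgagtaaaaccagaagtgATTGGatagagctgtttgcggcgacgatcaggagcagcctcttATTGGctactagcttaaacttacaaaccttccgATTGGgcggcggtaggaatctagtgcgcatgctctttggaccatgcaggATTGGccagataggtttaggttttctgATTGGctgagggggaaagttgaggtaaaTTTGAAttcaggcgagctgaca
Bub1, chr2:127831830-127832109, - strand: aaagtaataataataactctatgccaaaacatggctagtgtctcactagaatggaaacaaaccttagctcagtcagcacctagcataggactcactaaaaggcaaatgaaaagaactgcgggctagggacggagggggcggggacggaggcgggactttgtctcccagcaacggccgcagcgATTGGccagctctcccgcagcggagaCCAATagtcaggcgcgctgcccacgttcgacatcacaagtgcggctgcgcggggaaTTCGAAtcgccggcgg
Cep55, chr19:38054734-38055013, + strand: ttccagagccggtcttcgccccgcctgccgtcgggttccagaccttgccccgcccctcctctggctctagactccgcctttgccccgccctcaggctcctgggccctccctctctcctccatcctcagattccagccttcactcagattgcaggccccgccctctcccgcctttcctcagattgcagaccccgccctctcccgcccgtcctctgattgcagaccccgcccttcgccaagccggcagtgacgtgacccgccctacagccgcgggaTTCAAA
Cenpf, chr1:189688057-189688336, - strand: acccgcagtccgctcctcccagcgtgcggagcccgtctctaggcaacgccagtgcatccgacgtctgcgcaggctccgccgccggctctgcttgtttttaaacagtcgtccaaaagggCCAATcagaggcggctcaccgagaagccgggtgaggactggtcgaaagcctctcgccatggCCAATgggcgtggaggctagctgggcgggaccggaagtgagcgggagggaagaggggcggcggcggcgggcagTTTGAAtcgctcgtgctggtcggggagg
Ckap2l, chr2:129297183-129297462, - strand: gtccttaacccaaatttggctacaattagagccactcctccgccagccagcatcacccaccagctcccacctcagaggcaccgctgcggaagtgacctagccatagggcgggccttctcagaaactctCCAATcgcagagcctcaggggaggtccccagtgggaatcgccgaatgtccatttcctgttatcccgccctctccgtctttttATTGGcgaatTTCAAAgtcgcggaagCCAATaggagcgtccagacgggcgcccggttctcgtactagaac
Nusap1, chr2:119618048-119618327, + strand: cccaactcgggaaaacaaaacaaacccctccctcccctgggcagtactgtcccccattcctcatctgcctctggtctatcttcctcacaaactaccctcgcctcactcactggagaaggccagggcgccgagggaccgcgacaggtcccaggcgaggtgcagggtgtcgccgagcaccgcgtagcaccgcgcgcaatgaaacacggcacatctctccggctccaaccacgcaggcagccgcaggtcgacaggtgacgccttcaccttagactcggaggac
Ndc80, chr17:71526828-71527107, - strand: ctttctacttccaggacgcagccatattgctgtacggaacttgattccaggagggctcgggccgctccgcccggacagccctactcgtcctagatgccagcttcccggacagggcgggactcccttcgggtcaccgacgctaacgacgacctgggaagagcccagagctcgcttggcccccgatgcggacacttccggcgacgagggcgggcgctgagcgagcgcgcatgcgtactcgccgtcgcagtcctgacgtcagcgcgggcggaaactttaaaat
Cenpk, chr13:104228361-104228640, + strand: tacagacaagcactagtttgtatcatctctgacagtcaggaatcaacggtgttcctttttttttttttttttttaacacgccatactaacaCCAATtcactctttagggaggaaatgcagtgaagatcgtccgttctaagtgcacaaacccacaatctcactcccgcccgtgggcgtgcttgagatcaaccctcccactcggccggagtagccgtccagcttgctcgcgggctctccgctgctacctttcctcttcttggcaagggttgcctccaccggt
The CHR is the element bound by the MuvB core that DREAM and MMB share, and the CCAAT box is bound by NF-Y. The first 5 promoters hold 1 CHR match each, and the other 3 hold none. Cenpk has 1 CCAAT match, and Nusap1 and Ndc80 hold neither motif. A CHR match was found in 40 of 73 matched promoters of the mitotic lists (54.8%), in 6 of 41 of the replication lists (14.6%) and in 727 of 5405 promoters of all genes above the floor (13.5%). Matches to an E2F site, spelled TTTCGCGC or TTTGGCGC, were in 7 of 41 replication promoters (17.1%), in 1 of 73 mitotic promoters (1.37%) and in 1.67% of all promoters above the floor. CCAAT matches were in 65.8% of mitotic promoters, 58.5% of replication promoters and 39.6% of all promoters above the floor. Over all 27025 promoters of this length in the table, 18.6% held a CHR, 0.77% an E2F and 36.6% a CCAAT match. A match describes the letters only.

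Subunits of condensin and cohesin, the rings that compact and hold sister chromosomes, had a median of 2.03, with 10 of 14 genes at least 2-fold higher. The condensin subunits Smc2 (270 against 14.9 TPM, ratio 4.10), Smc4 (667 against 48.4 TPM, 3.76) and Ncapg (56.7 against 1.87 TPM, 4.33) and the cohesin acetyltransferase Esco2 (17.5 against 0.28 TPM, 3.86) led this list. Smc4 was above 0 in 30 of 32 low-score cells, so its difference was one of level in most cells. Among cells with a mitochondrial share of at least 1% the list median was 0.99.

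DNA replication genes were also higher. In 3 lists of licensing, fork and deoxynucleotide genes, 56 of 61 members passed the floor. Of these, 44 were at least 2-fold higher and 0 at least 2-fold lower, beside 11.5% and 6.35% of all genes. Their median ratio was 1.83, with 1.68, 2.22 and 1.82 within the sets and 1.45 among cells with a mitochondrial share of at least 1%. This was below the mitotic median, though mitotic genes ordered the cells. With a floor of 50 TPM the replication and mitotic medians were 1.43 and 1.39. The mean log2(TPM + 1) over these 56 genes had a median of 4.44 per high-score cell (2.50 to 6.19) and 2.34 per low-score cell (1.17 to 3.54), and 26 of 32 high-score cells lay above every low-score cell. Of the 33 middle cells, 7 did so too.

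Rrm2, the S-phase subunit of ribonucleotide reductase on chromosome 12 at 24708241 to 24714146, had 0 to 410 TPM with a median of 50.0 in high-score cells. In low-score cells it had 0 to 42.6 TPM with a median of 0, and 9 of 32 were above 0. Its ratio was 4.27, and 17 high-score cells exceeded every low-score cell. Other enzymes of deoxynucleotide supply were higher as well, Tk1 by 3.78 and Rrm1 by 2.76 on the log2 scale. Of the licensing genes, Cdc45 of the replicative helicase averaged 44.3 against 1.86 TPM (3.99), Mcm10 13.5 against 0.39 TPM (3.38), Cdc6 14.3 against 0.58 TPM (3.27) and Mcm5 12.0 against 0.86 TPM (2.81). Gmnn, which blocks relicensing in S and G2, averaged 135 against 17.8 TPM (2.85). At the fork, Dscc1 (3.88), the primase Prim1 (3.87), the PCNA-associated factor 2810417H13Rik (3.70) and the polymerase Pole (3.68) had the largest ratios. Dscc1 was above 0 in 14 of 32 high-score cells, at up to 192 TPM, and its ratio by mean of logs was 1.89. Pcna, the sliding clamp, stood apart from these genes: it had a median of 248 TPM in high-score and 134 TPM in low-score cells, was above 0 in 30 of 32 low-score cells, and had a ratio of 1.02. Its ranges overlapped in all but 1 high-score cell.

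Per cell, replication and mitotic levels went together but not in step. The Spearman correlation of both means was 0.87 over the 97 cells and 0.50 within the 32 high-score cells, whose points share library, depth and the number of genes detected. The lowest replication mean in a high-score cell, 2.50, lay below that of several low-score cells. Within the high-score cells the number of genes above 0 had a correlation of 0.39 with the replication mean.

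**Figure D3:**
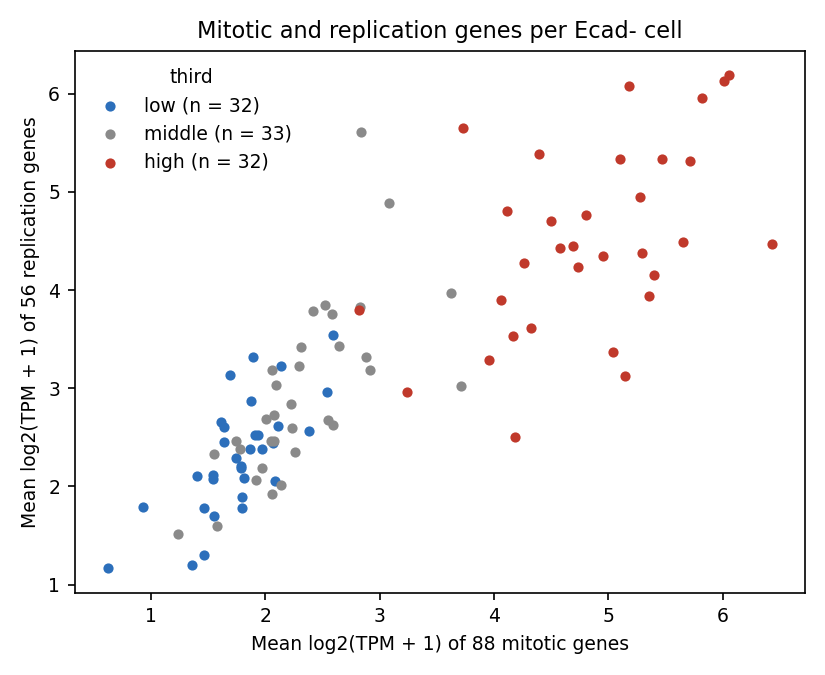
Mean log2(TPM + 1) of 56 replication genes (y axis) against that of 88 mitotic genes (x axis), 1 point per Ecad- cell coloured by group. High-score cells spread from 2.50 to 6.19 on the replication axis, and all 32 lie to the right of every low-score cell.

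Genes of the G1/S step gave mixed values. Of 15 genes only 6 passed the floor, and 3 of these were at least 2-fold higher. Dbf4, the activator of the origin-firing kinase, was the largest, at 145 against 13.8 TPM (3.30). Ccne2 averaged 13.4 against 1.64 TPM (2.45), with -0.17 within set 1, and Ccne1 8.98 against 2.69 TPM (1.44), both cyclins of S-phase entry. Rb1, which restrains E2F, averaged 5.30 against 10.5 TPM (-0.87). It was above 0 in 19 high-score and 15 low-score cells, and its ratio by mean of logs was -0.22. Ccnd1, the cyclin of early G1, averaged 110 against 33.8 TPM (1.68), with 0.31, 1.91 and 0.6 within the sets, while its list as a whole had a median of -0.22, with 1 of 12 genes, Ccnd1 itself, at least 2-fold higher and 2 lower, Myc and Id3. Myc averaged 32.7 against 70.7 TPM (-1.09), with -0.16, -0.34 and -2.35 within the sets. Id3, an inhibitor of differentiation factors, had a ratio of -1.01 by mean TPM and 0.13 by mean of logs.

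Chromatin assembly genes, which deliver histones and renew nucleosomes behind the fork, had a median of 1.00, with 15 of 26 at least 2-fold higher and 0 lower. Asf1b, a histone chaperone, averaged 56.8 against 3.46 TPM (3.70), Hat1, which acetylates new histone H4, 388 against 50.8 TPM (2.91), the remodeller Hells 96.2 against 12.1 TPM (2.89), and Hmgn2 348 against 52.4 TPM (2.71). Of 20 genes of homologous recombination and the Fanconi pathway, which repair broken forks, 7 passed the floor and 6 of these were at least 2-fold higher. Among these, Rad51ap1 averaged 97.3 against 0.61 TPM (5.93), the checkpoint kinase Chek1 64.1 against 13.2 TPM (2.20) and Fancb 10.4 against 1.71 TPM (2.08). Chek1 had 0.72 within set 1. Fancb was above 0 in 15 high-score and 4 low-score cells, and had 1.11 by mean of logs and 0.52 within set 3.

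Transcripts of the clustered histone genes went the other way. Of 39 genes 13 passed the floor, with a median of -2.22. At least 2-fold lower in high-score cells were 9 of these and higher 1, Hist1h4k at 1.05, beside 6.35% and 11.5% of all genes. Hist1h2bc, on chromosome 13 at 23684199 to 23692908, had 0 to 842 TPM with a median of 58.8 in high-score cells and 0 to 4907 TPM with a median of 657 in low-score cells. Its ratio was -3.07, the ranges overlapped fully, and 25 of 32 low-score cells lay above the high-score median. Hist2h2aa1 averaged 26.4 against 284 TPM (-3.38), Hist1h3e 1.68 against 29.8 TPM (-3.53) and Hist1h4h 22.0 against 116 TPM (-2.35). The size varied between library sets, with list medians of -0.41, -2.81 and -0.62, and it was -1.36 over 7 genes among cells with a mitochondrial share of at least 1%. Most histone messages of S phase carry no poly(A) tail, while SMARTer amplification primes from poly(A), so how fully these values hold the S-phase messages is not known. Members of this family share near-identical sequence, and their values are uncertain where reads were split between them. Hist1h4k, Plk3, Plk2, Srsf3 and Xbp1 are named after their values were seen.

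Of 7 CDK inhibitors, which brake the cycle, 3 passed the floor, 2 of them below and 1 above the median of all genes. Their median was -0.92, with -0.87, -1.38 and 0.44 within the sets and -0.996 among cells with a mitochondrial share of at least 1%. Cdkn1a, the p53 target p21, had a median of 32.9 TPM in high-score and 120 TPM in low-score cells, and means of 89.9 and 165 TPM (-0.87). It was above 0 in 26 and 25 of 32 cells, so it was detected in about as many cells of either group. Its ratio was -0.81, -2.08 and 0.51 within the sets. Cdkn2b, induced by TGF-beta, averaged 29.3 against 61.7 TPM (-1.05) and was lower in each set, and Cdkn2c averaged 6.40 against 3.16 TPM (0.83). Cdkn1b was below the floor, at 2.64 against 3.80 TPM. Of 19 p53 targets and growth arrest genes 5 were at least 2-fold lower, beside 6.35% of all genes, and 1, Plk3 at 1.08, higher, with a median of -0.12. The lower genes included Plk2, at -1.19. Gadd45a averaged 22.5 against 87.6 TPM (-1.92), the antiproliferative Btg1 31.4 against 113 TPM (-1.82) and the noncoding growth arrest transcript Gas5 1137 against 2687 TPM (-1.24), each lower in all 3 sets. Btg2 had -1.38 but 2.72 within set 3. Among cells with a mitochondrial share of at least 1% this list had a median of -1.15, with 9 of 17 genes at least 2-fold lower, beside 8.08% of all genes.

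Of the DREAM and quiescence regulators, which can both silence and activate cell cycle genes, 4 of 11 were at least 2-fold higher, and the list median was 0.12. All 4 are parts of these complexes: the MuvB subunits Lin9 (23.9 against 1.57 TPM, 3.27), Lin54, which contacts the CHR (21.2 against 2.49 TPM, 2.67), and Lin52 (31.9 against 13.0 TPM, 1.23, with -0.86 within set 2), and the repressor E2f4 (38.6 against 18.4 TPM, 1.03). Lin9 was above 0 in 27 high-score and 6 low-score cells.

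**Figure D4:**
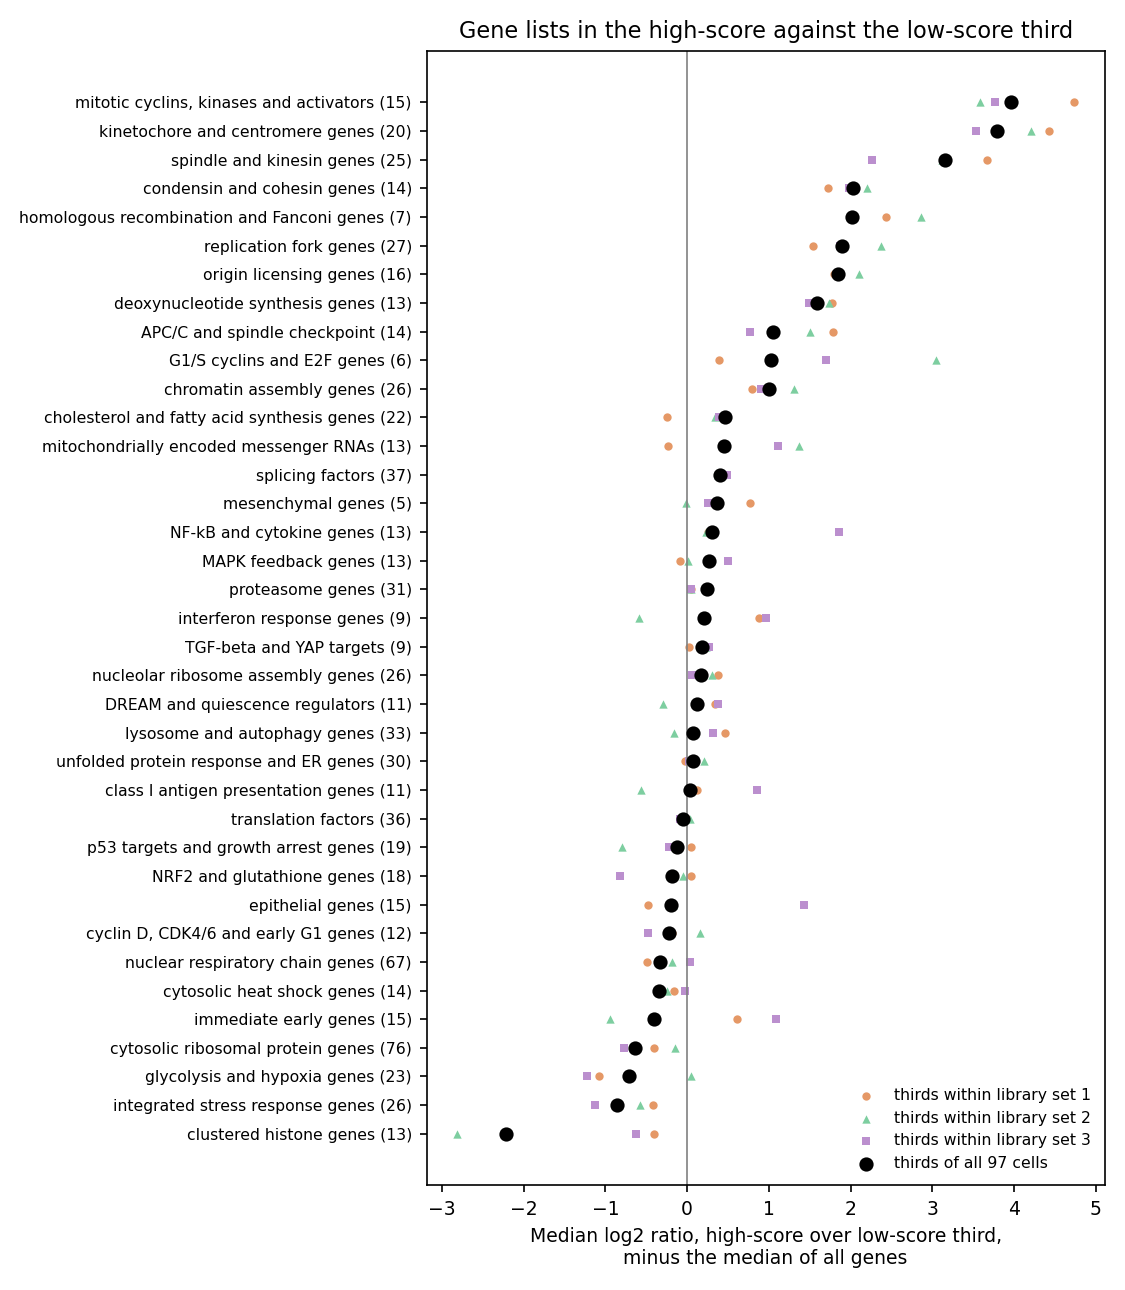
Median log2 ratio of each gene list (rows, with the number of genes above the floor) minus the median of all genes (x axis), for groups drawn from all 97 Ecad- cells (black) and within library sets 1, 2 and 3. Mitotic and replication lists lie at 1.05 to 3.96, and clustered histone, integrated stress response, glycolysis and ribosomal protein lists at -2.22, -0.86, -0.71 and -0.64.

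Genes of the integrated stress response, the ATF4 and CHOP programme that amino acid shortage and endoplasmic reticulum stress switch on, were lower in high-score cells. Of 30 genes 26 passed the floor, 7 were at least 2-fold lower and 0 higher, and 22 lay below the median of all genes. The list median was -0.86, with -0.42, -0.58 and -1.13 within the sets and -0.83 among cells with a mitochondrial share of at least 1%. Per cell the mean log2(TPM + 1) of the 26 genes had a median of 4.30 in high-score cells (1.36 to 6.61) and 5.69 in low-score cells (1.32 to 7.51). The groups overlapped over nearly their whole range, and the Spearman correlation with the score was -0.16 over 97 cells and 0.05 over the 57 cells with a mitochondrial share of at least 1%.

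Nupr1, a stress-induced chromatin protein on chromosome 7 at 126623249 to 126630861, gave the clearest difference of this list. It had 0 to 1683 TPM with a median of 203 in high-score cells, a median of 507 in middle cells, and 0.33 to 8398 TPM with a median of 1425 in low-score cells. Its ratio was -1.99, with -1.75, -2.40 and -1.57 within the sets and -2.51 among cells with a mitochondrial share of at least 1%, and 28 of 32 low-score cells lay above the high-score median. Ddit3, which encodes CHOP, had medians of 134 and 526 TPM and means of 344 and 652 TPM (-0.92, with -0.36, -1.63 and -0.85 within the sets). It was above 0 in 28 high-score and 30 low-score cells, so it was detected in most cells of both groups. Atf3 averaged 27.2 against 112 TPM (-2.00), the CHOP target Trib3 14.8 against 54.3 TPM (-1.81, with 0.027 within set 2) and the autophagy receptor Sqstm1 493 against 1380 TPM (-1.48). The cystine transporter gene Slc7a11 averaged 7.61 against 20.5 TPM (-1.32). Atf4 did not follow: its mean was 468 against 353 TPM (0.41), with 1 high-score cell at 7500 TPM, its median was 136 against 202 TPM, and its ratio by mean of logs was -0.81. A match to the ATF/CHOP composite element, spelled TGATGCAA or TGATGAAA, was in 6 of 24 promoters of this list (25.0%) and in 1.22% of all promoters above the floor.

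**Figure D5:**
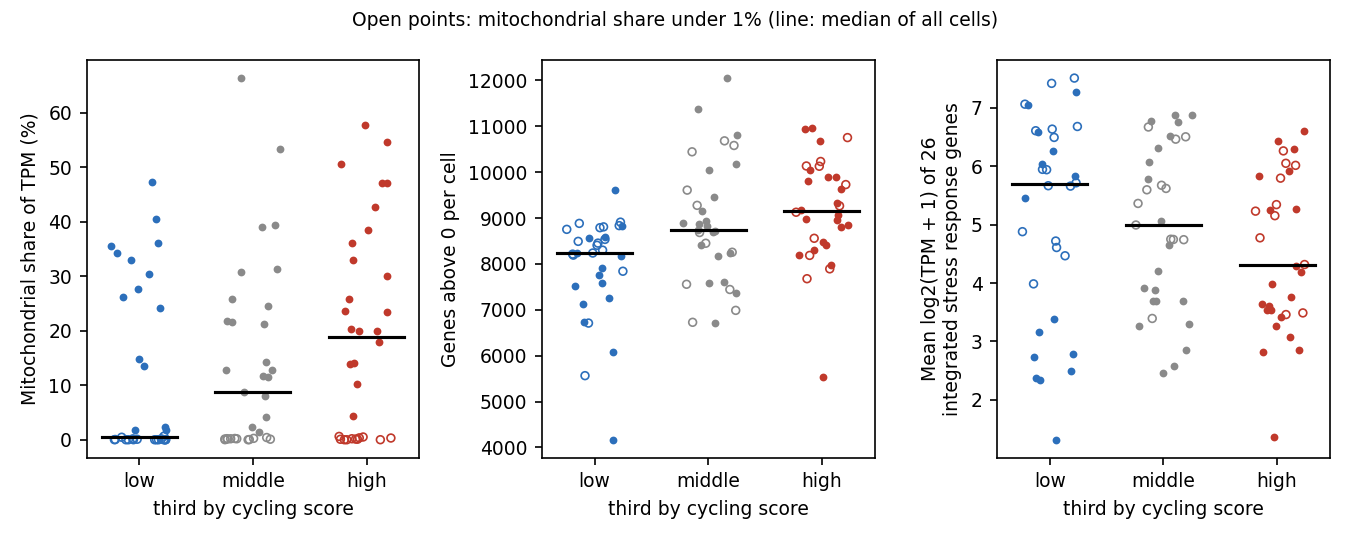
Mitochondrial share of TPM in percent, number of genes above 0, and mean log2(TPM + 1) of 26 integrated stress response genes (y axes, left to right) per Ecad- cell by group (x axes), with open points for cells with a mitochondrial share under 1% and a line at the median. Medians from low-score to high-score cells run from 0.55% to 18.9%, from 8243 to 9146.5 genes and from 5.69 to 4.30.

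The unfolded protein response as a whole did not share this direction. Its 30 genes had a median of 0.07, with 4 at least 2-fold lower and 1 higher, beside 6.35% and 11.5% of all genes. Hspa5, the endoplasmic reticulum chaperone BiP, had means of 310 and 322 TPM (-0.05) and medians of 300.2 and 279 TPM. The lower genes were the oxidase Ero1l (10.2 against 42.0 TPM, -1.94), the degradation adaptor Sel1l (15.7 against 46.6 TPM, -1.51), Sec61b of the translocon (210 against 476 TPM, -1.18) and the transcription factor Xbp1 (-1.07). The medians of Ero1l were 7.24 and 7.51 TPM, and its highest low-score value was 668 TPM. Its ratio was -0.39 by mean of logs and 0.0093 within set 2. Crebrf averaged 153 against 60.9 TPM (1.32), but -1.03 by mean of logs and -0.64 among cells with a mitochondrial share of at least 1%. Lysosome and autophagy genes had a median of 0.08, with 3 of 33 at least 2-fold higher and 1, Sqstm1, lower. The higher members included Hexa (1.77) and Flcn (1.76). The median of Hexa was 4.35 TPM in high-score and 44.7 TPM in low-score cells, and its ratio was -0.40 by mean of logs.

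Heat shock genes had a median of -0.35, which was 0.042 with groups drawn within each set and 0.22 among cells with a mitochondrial share of at least 1%. At least 2-fold lower were 3 of 14, beside 6.35% of all genes: Hspa1b (-1.61), Hspb1 (-1.14) and Dnajb1 (-1.08). The first 2 of these were higher within set 3, at 2.16 and 1.98, where the high-score group includes middle cells. In the 33 middle cells Hspa1b averaged 221 TPM and Hspb1 106 TPM. Immediate early genes had a median of -0.40 and split by set (0.61, -0.95 and 1.09), with Jund at -1.73 and Egr1 at 1.19. NRF2 and glutathione genes had a median of -0.18, with Gstm1 at -1.04 and the ferritin gene Fth1 at -0.78, at 4567 against 7851 TPM.

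Glycolysis and hypoxia genes were lower, with a median of -0.71, 6 of 23 at least 2-fold lower and 0 higher, beside 6.35% and 11.5% of all genes. Ndrg1, a hypoxia-induced gene, averaged 27.4 against 122 TPM (-2.12) and was above 0 in 18 high-score and 29 low-score cells. The glycolytic Aldoc averaged 9.92 against 53.0 TPM (-2.31), carried by 9 low-score cells with up to 907 TPM, and its ratio by mean of logs was 0.25. Bnip3, a mitophagy receptor, averaged 45.4 against 136 TPM (-1.56), Adm 1.43 against 8.12 TPM (-1.91) and Hilpda, a hypoxia-induced lipid droplet protein outside this list, 118 against 375 TPM (-1.66). The list median was -1.08, 0.05 and -1.23 within the sets, so set 2 did not share it.

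Ribosomal protein genes were lower by a small amount. Of 76 genes 75 lay below the median of all genes, 9 were at least 2-fold lower, 61 were lower in each of the 3 sets, against 18.5% of all genes, and the median was -0.64. Rps27 averaged 1340.5 against 3578 TPM (-1.42), Rplp1 806 against 1756 TPM (-1.12) and Rps28 554 against 1197 TPM (-1.11). Among cells with a mitochondrial share of at least 1% the median was -0.31, and the Spearman correlation of their mean level with the score went from -0.41 over 97 cells to -0.15 over 57. TPM is a share within a cell, so a lower share of these abundant transcripts and more of all other transcripts cannot be told apart. Nuclear respiratory chain genes had a median of -0.33, with Ndufa11 at 37.2 against 99.4 TPM (-1.40). Translation factors had a median of -0.06, with Eif4ebp1, an inhibitor of cap-dependent translation and an ATF4 target, at 229 against 597 TPM (-1.38). Of 14 nuclear long RNAs the table holds 2, Gas5 and Snhg3, with a median of -0.97.

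Splicing factors had a median of 0.41, with 0.44, 0.38 and 0.48 within the sets, and 32 of 37 lay above the median of all genes. At least 2-fold higher were 5 of 37 and lower 0, a higher share near the 11.5% of all genes. Srsf1 averaged 145 against 42.2 TPM (1.76), Srsf7 268 against 96.7 TPM (1.46), Hnrnpd 109 against 46.2 TPM (1.22), Srsf2 124 against 55.6 TPM (1.14), and Srsf3 had 1.03. Nucleolar ribosome assembly genes had a median near 0, at 0.17, with 15 of 26 above and 11 below the median of all genes. Of these Nolc1 (1.31), Nop58 (1.15) and Nop56 (1.09) were at least 2-fold higher, a share equal to that of all genes, and Polr1e was at -0.91. Proteasome genes had a median of 0.24, with 0.05 within each set, and 0 of 31 past 2-fold, with Psmb7 highest at 0.86. Mitochondrially encoded messages had a median of 0.45, with -0.23, 1.37 and 1.11 within the sets and 0.06 among cells with a mitochondrial share of at least 1%. mt-Co1 averaged 3422 against 3035 TPM (0.17), with medians of 2963 and 75.9 TPM.

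Genes of cell identity had no common direction. Cdh1, the gene of the sorted protein, had 0 to 54.5 TPM with a median of 8.36 in high-score cells and 0 to 116 TPM with a median of 11.5 in low-score cells. It was above 0 in 24 and 27 of 32 cells, and its ratio was -0.48, with -1.41, -0.65 and 1.00 within the sets. Epithelial genes had a median of -0.20, with -0.48, -0.17 and 1.43 within the sets. In the pooled groups and in all 3 sets alike, 0 of 15 were higher and 0 lower, beside 16.8% and 18.5% of all genes. Krt18 averaged 1567 against 754 TPM (1.05, with -0.61 within set 2) and Krt8 566 against 295 TPM (0.94, with -0.30 within set 2). Krt19 averaged 279 against 284 TPM (-0.02), but its medians were 156 and 47.8 TPM. Its ratio was 1.22 by mean of logs and -0.74, 0.07 and 2.00 within the sets. Epcam, at 1.53 against 11.7 TPM (-2.33), was above 0 in 6 and 8 cells, and had 0.51 with groups drawn within each set. Of the mesenchymal genes 5 of 27 passed the floor, with a median of 0.37: Vim averaged 299 against 223 TPM (0.42), Cdh2 8.74 against 3.56 TPM (1.09) and the repressor Snai2 9.49 against 35.5 TPM (-1.80).

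Genes of immune recognition had medians near 0. Class I antigen presentation genes had a median of 0.04, with 1 of 11 past 2-fold, Tapbpl at 1.10. B2m, the light chain of class I molecules, averaged 708 against 586 TPM (0.27), with medians of 412 and 405 TPM, and H2-K1 46.2 against 43.5 TPM (0.09). Both were lower in high-score cells once cells with a mitochondrial share under 1% were left out, at -0.95 and -1.06, and the list median was then -0.82. Interferon response genes had a median of 0.21, with Xaf1 at 1.78 in 31 and 27 cells. Cxcl10, at -4.23, was above 0 in 7 high-score and 2 low-score cells, and its sign turned to 0.59 by mean of logs. NF-kB and cytokine genes had a median of 0.31 and -1.68 among cells with a mitochondrial share of at least 1%. Csf2, a myeloid growth factor, averaged 55.3 against 3.06 TPM (3.79) from 10 and 3 cells. A single high-score cell at 1301 TPM gave most of the higher mean, and the ratio was 1.19 by mean of logs.

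Other signalling and metabolic lists had medians of 0.27 for MAPK feedback, 0.19 for TGF-beta and YAP targets and 0.47 for cholesterol and fatty acid synthesis, none of which held its sign throughout. MAPK feedback had -0.09 within set 1 and -0.0036 among cells with a mitochondrial share of at least 1%, and TGF-beta and YAP targets had -0.29 among the latter. Cholesterol and fatty acid synthesis had -0.25 within set 1 and -0.070 with groups drawn within each set. Of these lists, the EGFR ligand gene Areg had 1.19 but -1.04 within set 2, the YAP target Ankrd1 1.82 (-0.080 without set 3 and the cells of low mitochondrial share) and the sterol carrier gene Stard4 1.34, the latter with 0.77, 1.20 and 1.28 within the sets.

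Markers of other cell types were low in most cells. Of the immune markers, Ptprc and Cd3e were listed at 0 in all high-score and all low-score cells, and the summed level of 10 markers was 0 to 76.1 TPM in high-score cells and 0 to 268 TPM in low-score cells. Most of this was Cd68, a lysosomal protein gene, at 8.32 against 41.2 TPM (-2.18). No fibroblast, endothelial or acinar and endocrine marker passed the floor. Summed fibroblast markers reached 5.00 TPM in a high-score and 1.26 TPM in a low-score cell, endothelial markers 67.7 and 62.0 TPM, and acinar and endocrine markers 26.9 and 35.2 TPM. Of the hepatocyte markers, Alb and Apoa1 were at 0 in every low-score cell, and Serpina1a and Fgb in every cell of both groups. Of the 3 above the floor, 2 lay above the median of all genes. The other, Ttr, had -3.09, but 1.80 with groups drawn within each set. The summed level of 8 markers was 1.24 to 156 TPM in high-score cells (median 18.2) and 0 to 649 TPM in low-score cells (median 3.98).

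Ranked over the whole table by the smallest ratio over the 3 library sets, the leading higher genes included Pbk, Bub1, Hmmr, Cep55, Casc5, Ndc80, Rad51ap1, Shcbp1 and Depdc1a. Shcbp1 and Depdc1a were in no list: Depdc1a (117 against 0.0037 TPM, 6.87) and Shcbp1 (114 against 0.017 TPM, 6.83), a cytokinesis protein. Both ratios rest on low-score means near 0, and were 3.66 and 3.64 with 10 TPM added and 10.1 and 9.94 with 0.1 TPM added. Depdc1a exceeded every low-score cell in 30 of 32 high-score cells and Shcbp1 in 29. The leading lower genes were Nupr1, Aldoc, Angptl6, Pmm1, Hsd3b7, Serhl, Polg2, Hilpda, Gm17035 and Grcc10. The groups overlapped in all 10: Pmm1, which makes mannose-1-phosphate, had medians of 19.4 and 103 TPM (-1.99), Grcc10 of 60.0 and 433 TPM (-1.71), and Angptl6 of 0 and 9.08 TPM (-2.40). Gm17035 overlaps Ndrg1 on the opposite strand, and without strand their reads cannot be told apart.

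The same rule was applied to the 100 Ecad+ cells for comparison, with 33 cells a group. Scores there were higher: 69 of 100 Ecad+ cells were at or above the lowest high-score Ecad- cell, and 17 were at or below the highest low-score Ecad- cell. The Ecad+ low-score group reached a score of 4.18, above the lowest high-score Ecad- cell at 3.76. A mitochondrial share under 1% was found in 1 of 100 Ecad+ and 40 of 97 Ecad- cells. Among 6823 genes above the floor, 5.89% were at least 2-fold higher and 8.88% at least 2-fold lower. The mitotic median was 3.27 in Ecad+ and 3.25 in Ecad- cells, and the replication median 1.24 and 1.83. Nupr1 stood at -1.66 and -1.99, Ddit3 at -2.73 and -0.92, and the stress response list at -0.77 and -0.86. Ribosomal protein genes had 0.23 in Ecad+ and -0.64 in Ecad- cells, lysosome and autophagy genes -0.83 and 0.08, and clustered histone genes 1.23 over 8 and -2.22 over 13 genes. Among Ecad- cells with a mitochondrial share of at least 1%, these medians were -0.31, -0.12 and, over 7 histone genes, -1.36. The histone medians cover the genes that passed the floor in each fraction. Of the 8 in Ecad+ cells, 4 were at least 2-fold higher and 3 lower. Of the lower histone genes named above, Hist1h2bc had -3.78, Hist2h2aa1 -1.94, Hist1h4h -1.91 and Hist1h3e -0.13 in Ecad+ cells. Each fraction is 1 sample, so these differences were not tested.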

How the data were processed

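Per the labels' protocols, single cells were captured on a Fluidigm C1 and amplified with SMARTer chemistry. The submitters' processing notes list FastQC 0.11.5, kallisto (no version) and mm10. The authors deposited log2 values in 28987 rows, which were read as log2(TPM + 1). TPM holds no depth, so counting error and depth are unknown. Symbols missing or turned into dates (822 rows) were looked up by identifier in GENCODE M21, which named 27. Libraries correlating above 0.97 were averaged as 1 cell (5 pairs, the next closest pair had 0.939). Doublets were not called, and the authors' comparison columns were not used.

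The cells were grouped by score, and means, ratios and floors were computed as stated above, with Python 3.11.15, numpy 2.4.6, pandas 2.3.3 and scipy 1.17.1, and plotted with matplotlib 3.10.9. The calculation was checked on simulated data in which each gene was shuffled separately between cells. That check keeps no links between genes or library sets of the real cells, so it covers the arithmetic only. No comparison was tested, because the cells of a fraction are 1 sample. The members, gene lists, motifs and promoter window were chosen with earlier results of these data known. In total 5405 of 7422 genes matched a RefSeq promoter.

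The rule for named genes gave 179. It joins 22 fixed genes, the 4 most different genes per list by absolute ratio, and the 10 higher and 10 lower genes whose weakest ratio over the library sets was largest, given a mean TPM of 20 or more and detection in 25% of cells or more. The text prints a subset of these picked with values in view, while other settings were run for all 179. Genes outside the rule are marked as such in the text where named. The 20 other settings and 2 more added after seeing the data changed the mean, pseudocount, floor, scaling, score genes, cuts, cells and library sets. Some genes that the rule names are not reported here.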

Additional observations from a re-analysis of the deposited data

How the results depend on the processing

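The medians of the mitotic, replication and chromatin assembly lists stayed positive, and those of the integrated stress response, glycolysis, ribosomal protein and clustered histone lists negative, under all 20 other settings tried and the 2 added after seeing the data. Their size did not hold: the median of the 5 mitotic lists together ranged from 1.39 to 3.64, that of the stress response from -0.95 to -0.50, of glycolysis from -0.98 to -0.34, of ribosomal proteins from -0.93 to -0.11 and of histones from -3.07 to -0.39. Medians of the epithelial, translation, class I, lysosome, interferon and NF-kB lists changed sign under 6 to 9 of them. The added settings draw the groups above and below a mitochondrial share of 1%, or leave out the cells under it together with library set 3. The median ratio of all genes was 0.31 with the mean of log2 values and -0.10 under the second added setting. A list median was counted as shifted where it moved by more than the SD of its 3 within-set values, 154 of 943 medians, and a small SD marks small shifts of the proteasome, translation and splicing lists. For genes named by the rule, a turn in sign was counted only where the main ratio was at least 2-fold. This held for 19 of 179 genes, in 34 of 3938 values. Smaller ratios also changed sign but were not counted as turned, such as Hspa5 in 11, Krt19 in 8 and B2m in 6 of 22 settings. Of the 179 genes, 113 shifted in size in 408 values, and the cause was not tested. A floor leaves other genes in a list, and the loss of cells leaves smaller groups. The shifted counts and list medians (relative to all genes, under short names) and the ratios counted as turned in sign follow. With the mean of log2 values, 1323 genes were higher and 261 genes were lower, and list medians were mitotic kinases 2.94, condensin 1.59, licensing 2.09, deoxynucleotide 1.27, recombination 1.57, unfolded protein -0.093, lysosome -0.45, heat shock -0.46, TGF-beta 0.057, mitochondrial 2.20, respiratory chain -0.61, translation -0.19, proteasome 0.0066 and splicing 0.26, and the sign turned for Aldoc 0.25, Crebrf -1.03, Cxcl10 0.59, Cxcl5 0.019, Hexa -0.40 and Id3 0.13. With 10 TPM added, 420 genes were higher and 174 genes were lower, and list medians were mitotic kinases 1.80, spindle 1.79, kinetochore 2.02, condensin 1.08, licensing 1.25, fork 1.17, deoxynucleotide 0.77, recombination 0.91, histone -0.86, proteasome 0.24, all mitotic 1.76 and all replication 1.21. With no floor, 1571 genes were higher and 958 genes were lower, and list medians were mitotic kinases 2.70, histone -0.39, proteasome 0.27 and splicing 0.46. With a floor of 50 TPM, 171 genes were higher and 121 genes were lower, and list medians were mitotic kinases 2.59, spindle 1.25, kinetochore 5.18, condensin 3.76, G1/S 3.31, fork 1.23, deoxynucleotide 0.66, early G1 0.21, p53 -0.86, DREAM 0.52, unfolded protein 0.47, interferon -2.29, mesenchymal -0.088, MAPK -0.58, TGF-beta -0.030, proteasome 0.26, splicing 0.47, all mitotic 1.39 and all replication 1.43. With the cells cut in 2 groups, 242 genes were lower, and list medians were kinetochore 3.28, condensin 1.70, licensing 1.69, deoxynucleotide 1.35, proteasome 0.17 and all replication 1.55, and the sign turned for Areg -0.30 and Epcam 0.53. Without both the cells with a mitochondrial share under 1% and set 3, 734 genes were lower, and list medians were mitotic kinases 3.30, APC/C 1.61, condensin 1.23, deoxynucleotide 1.39, p53 -0.60, heat shock 0.17, NF-kB -1.57, TGF-beta -0.25, cholesterol -0.090, nucleolar 0.47, ribosomal -0.11, translation 0.12, proteasome 0.23, splicing 0.51 and long RNA -0.42, and the sign turned for Ankrd1 -0.080, Ctgf -0.61, Dusp4 0.52, Icam1 -2.54, Jup -0.48, Oasl1 -0.24 and Tnfaip3 -0.034. With 0.1 TPM added, list medians were mitotic kinases 4.80, condensin 2.34 and deoxynucleotide 1.76. Without library set 3, list medians were APC/C 1.74, heat shock -0.12, TGF-beta 0.023, ribosomal -0.25, translation 0.018, proteasome 0.16 and splicing 0.53, and the sign turned for Areg -0.21 and Jup -0.039. With a 10% trimmed mean, list medians were kinetochore 4.71, licensing 2.28, heat shock -0.24, TGF-beta -0.39 and proteasome 0.17, and the sign turned for Cxcl10 3.07. Without library set 2, list medians were condensin 1.58, deoxynucleotide 1.25, unfolded protein 0.21, heat shock -0.51, mesenchymal -0.40, TGF-beta 0.059, translation 0.0060, proteasome 0.17, splicing 0.53 and hepatocyte 0.17, and the sign turned for Cxcl10 1.54 and Epcam 0.64. With the cells cut in 4 groups, list medians were condensin 2.27, deoxynucleotide 1.87, chromatin assembly 1.30, unfolded protein 0.21, MAPK 0.69, TGF-beta -0.11 and proteasome 0.14. With Mki67, Top2a, Aurkb and Birc5 alone as score, list medians were condensin 1.76, licensing 2.23, deoxynucleotide 1.37, translation 0.053 and proteasome 0.30, and the sign turned for Oasl1 -0.054. Without cells with a mitochondrial share under 1%, list medians were condensin 0.99, licensing 1.43, deoxynucleotide 1.32, recombination 3.37, p53 -1.15, unfolded protein 0.23, heat shock 0.22, class I -0.82, NF-kB -1.68, TGF-beta -0.29, nucleolar 0.52, ribosomal -0.31, translation 0.17, proteasome 0.37 and all replication 1.45, and the sign turned for Crebrf -0.64, Icam1 -1.67 and Jup -0.23. With groups drawn above and below the median number of genes, list medians were condensin 1.61, deoxynucleotide 1.26, proteasome 0.22 and splicing 0.47, and the sign turned for Cxcl10 1.52 and Ttr 1.72. With Cdk1, Ccnb1, Ube2c and Tpx2 alone as score, list medians were licensing 1.66, deoxynucleotide 1.17, cholesterol 0.87, translation 0.022, proteasome 0.17 and hepatocyte 0.0042. Without the 10% of cells with the fewest genes, list medians were licensing 2.05, heat shock -0.085, proteasome 0.15 and hepatocyte 1.34. Without library set 1, list medians were deoxynucleotide 1.44, unfolded protein 0.29, TGF-beta 0.35, translation 0.091 and proteasome 0.21, and the sign turned for Epcam 0.17 and Oasl1 -0.070. With groups drawn above and below a mitochondrial share of 1%, list medians were unfolded protein 0.20, TGF-beta 0.48, cholesterol 0.047, proteasome 0.19 and splicing 0.48. With rescaling that leaves out mitochondrial and ribosomal protein genes, list medians were heat shock -0.16. With groups drawn within each library set, list medians were heat shock 0.042, TGF-beta 0.018, cholesterol -0.070, translation 0.035, proteasome 0.18, splicing 0.52 and hepatocyte 1.33, and the sign turned for Btg2 0.30, Ctgf -0.020, Epcam 0.51, Hspa1b 0.12, Hspb1 0.41 and Ttr 1.80. Read depth is unknown, so what it limits cannot be stated. No paired analysis was possible because the numbers that Ecad+ and Ecad- samples share only count single cells, and the results come from no test.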
